A study of Homo sapiens with 14 samples.

Results

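NEIL1 RNA of 293FT cells was read at every position where the authors' lists called a base change inside the gene, on chromosome 15 of GRCh38 from 75346955 to 75357114, plus strand (GENCODE 29, ENSG00000140398.13). All changes were kept, which gave 38 sites of 22358 in the whole series and 120 calls of 46372, a call being 1 site in 1 library. The series asked whether a prime editor changes RNA bases away from its target, in total RNA of 293FT, a human embryonic kidney line with the SV40 large T antigen, sorted for the top 15% of fluorescence 40 h after transfection. Every library title carries the name hRNF2, read here as the editing target. The first group was given hA3A-BE3, human APOBEC3A joined to a Cas9 nickase as a cytosine base editor (3 libraries). The second was given PE3, a prime editor built from a Cas9 nickase and a reverse transcriptase (2 libraries). Controls were cells given Cas9, cells given EGFP and non-transfected cells, with 3 libraries each and 9 in all. Separate cultures are not stated for the replicates, and p-values cover no more than the library-to-library spread, which may be technical.

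NEIL1 is a DNA glycosylase that starts base excision repair by cutting out oxidised bases. Its transcript is a known substrate of ADAR1, an enzyme that turns adenosine into inosine in double-stranded RNA, and inosine is read as G in sequencing. Editing of a lysine codon gives an arginine in the loop that recognises damaged bases, and the edited and unedited enzymes differ in which lesions they remove. ADAR1 finds its substrates by their folding, so edited adenosines often lie in introns where inverted copies of a sequence can pair.

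The sites fell in intron 2, intron 5 and the start of exon 6 of NEIL1-201, a transcript of 10 exons that codes for a protein of 390 residues. Of the 38 sites, 22 were A-to-I, 14 T-to-C, 2 G-to-A and 0 C-to-U. The sequences around the sites called in the most libraries and around the lysine codon are printed 5' to 3' on the plus strand from GENCODE 29 transcripts that keep the intron, with called positions in capitals, A for A-to-I and T for T-to-C. The first holds the 3 sites called in the most libraries, from chr15:75353266-75353375. The other runs across the border of intron 5 into exon 6, chr15:75353709-75353768, and its capitals are the lysine codon positions.
stretch with sites 280, 355 and 361: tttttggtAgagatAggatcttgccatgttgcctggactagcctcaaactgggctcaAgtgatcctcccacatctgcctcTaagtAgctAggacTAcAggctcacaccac
end of intron 5 and start of exon 6: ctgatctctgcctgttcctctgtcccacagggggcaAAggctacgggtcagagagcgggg

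Intron 5, from 75352702 to 75353738, held 23 sites (14 A-to-I and 9 T-to-C) with 92 of the 120 calls. Intron 2, from 75349340 to 75352110, held 13 sites (6 A-to-I, 5 T-to-C and 2 G-to-A) with 23 calls. Exon 6, from 75353739 to 75353866, held 2 coding A-to-I sites with 5 calls. By recurrence, 13 sites were called in 1 library, 25 in at least 2 and 1 in all 14. Sites are called here by the last 3 digits of their position where the intron or exon is named. Strands were inferred here from the base counts of each call, and all calls fell on the strand of the gene, with 0 on the opposite strand. The sources used here do not give how the authors assigned strands. A T-to-C call on this strand is the same change in the reads as an A-to-I call on the other.

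**Figure D1:**
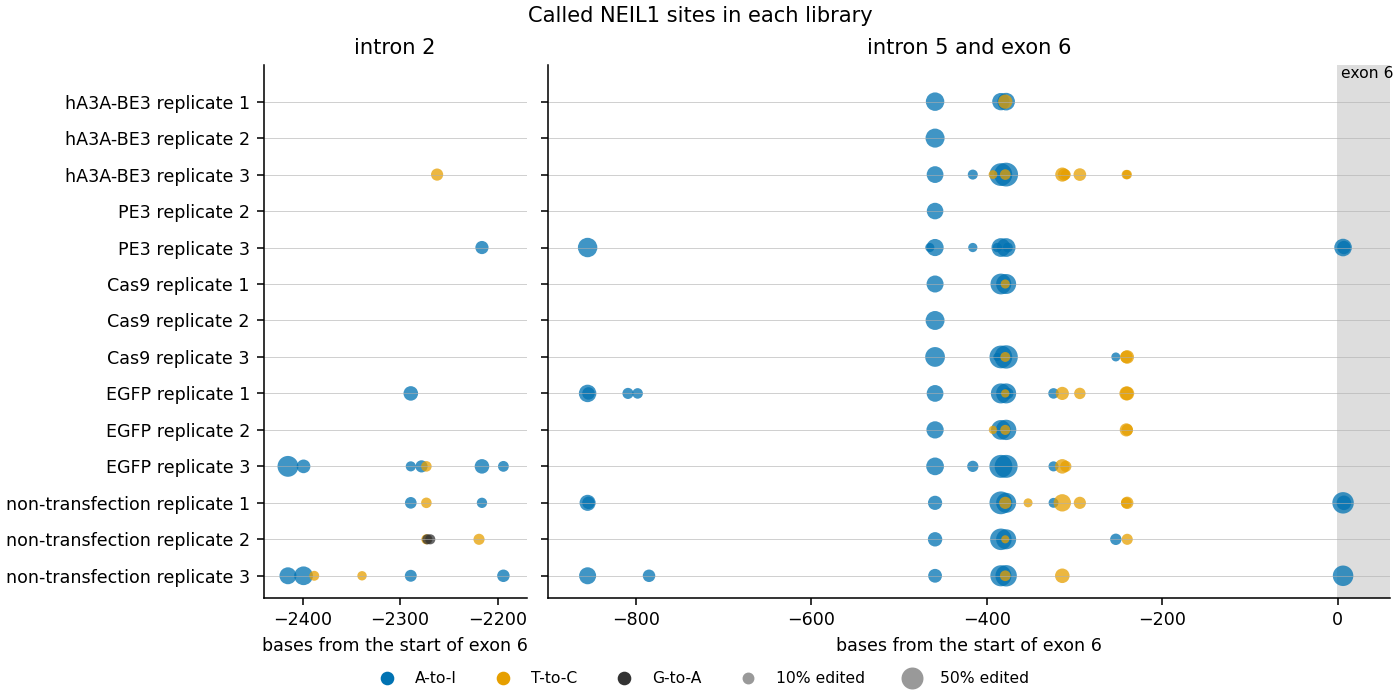
Each point is a called site in 1 library (rows), placed by its distance in bases from the start of exon 6, coloured by change and sized by the percent of covering reads that were edited. The column of points 459 bases before exon 6 runs through all 14 libraries, while points appear in intron 2 in 7 libraries and in exon 6 in 3.

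Intron 5 site 280, at 75353280 and 459 bases before exon 6, was edited in every library, and its level was lowest in non-transfected cells. In hA3A-BE3 libraries the edited share of covering reads was 42.1% (8 of 19 reads), 45.0% (9 of 20) and 34.2% (13 of 38). In PE3 libraries it was 33.3% (2 of 6) and 36% (9 of 25). The Cas9 libraries held 35.3% (12 of 34), 44.4% (4 of 9) and 48.6% (18 of 37). The ranges of these 3 groups overlap. EGFP libraries lay at 34.1% (14 of 41), 36.4% (16 of 44) and 38.5% (10 of 26), and non-transfected libraries at 23.7% (9 of 38), 24.4% (11 of 45) and 22.2% (8 of 36). Every one of the 11 transfected libraries, at 33.3% to 48.6%, was above every non-transfected library, at 22.2% to 24.4%. Single libraries were imprecise: the 95% Wilson interval ran from 9.68% to 70.0% in PE3 replicate 2 and from 14.2% to 38.7% in non-transfected replicate 2, covering counting error only.

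**Figure D2:**
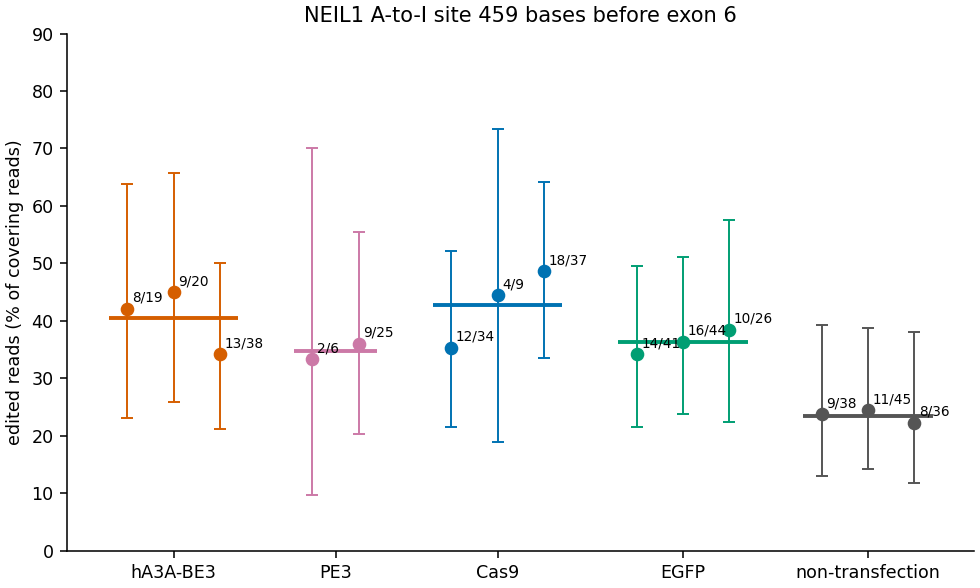
Percent of covering reads edited at intron 5 site 280, 1 point per library with its 95% Wilson interval, edited and covering reads printed beside it, and a bar at the group mean. The 3 non-transfected libraries sit at 22.2% to 24.4%, under all 11 transfected libraries, with intervals that overlap.

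Group means at site 280 were 40.4% ± 5.58 for hA3A-BE3 (SD, n = 3), 34.7% ± 1.89 for PE3 (n = 2), 42.8% ± 6.83 for Cas9 (n = 3), 36.3% ± 2.16 for EGFP (n = 3) and 23.5% ± 1.13 for non-transfected cells (n = 3). The level was tested as the log2 odds of editing with limma over the 278 sites of any gene called in at least 2 libraries of every group, with Benjamini-Hochberg adjustment over those sites. For EGFP against non-transfection the difference was 0.87 ± 0.36 (log2 odds, SE), with a 95% interval of 0.12 to 1.62. In the limma model over all sites p was 0.0260 and the adjusted p was 0.330, so it did not pass 0.05. Of all 278 sites, 0.36% passed in that contrast and 12.2% had an unadjusted p under 0.05. The exact permutation test of the 12.9-point difference in percent gave p = 0.1, the smallest that 3 against 3 libraries allow, and an adjusted p of 0.4 over the 4 contrasts. Every called EGFP library above every called non-transfected one was also seen at 18% of the 278 sites, and the median difference over all of them was 0.25 in log2 odds. A difference at least as high as that of site 280 was found at 37 of the 278. The order of all called transfected libraries above all called non-transfected ones, noticed after the values were seen and not tested, held at 6 of 278 sites (2.16%), against 0 (0.0%) with all below. Both orders were read over libraries with a call, and a site needs only 2 of these per group. Of the 278 sites, 152 were called in all 14 libraries, as site 280 was, so the shares are not for the full order seen there. The labels give 1 sorting text for all libraries, and transfection and sorting for fluorescence cannot be told apart.

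**Figure D3:**
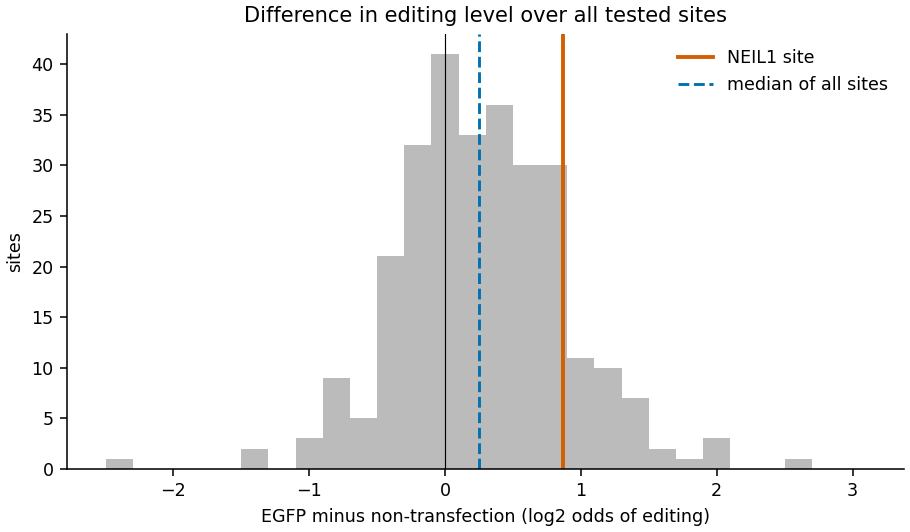
Number of sites by their difference in editing between EGFP and non-transfected cells in log2 odds, over the 278 sites tested, with the NEIL1 site at 0.87 and the median of all sites at 0.25. The NEIL1 line stands in the right part of the distribution, with 37 of the 278 sites at or above it.

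Neither editor differed from the controls at site 280 beyond the spread between libraries. The controls pool non-transfected cells at 23.5% with EGFP at 36.3% and Cas9 at 42.8%. The hA3A-BE3 mean of 40.4% lay between the transfected control groups, and the PE3 mean of 34.7% below both. The editors were not tested against the transfected controls alone. For hA3A-BE3 against the 9 controls, which averaged 34.2% ± 9.27 (SD, n = 9), the difference was 0.41 ± 0.29 (log2 odds, SE; 95% interval -0.21 to 1.02) with a limma adjusted p of 0.954. In that contrast 0.0% of the 278 sites passed with limma, and 17 (6.12%) had an unadjusted p under 0.05. The quasi-likelihood test of edgeR, run only on the 152 sites called in all 14 libraries, passed 0. For PE3 the difference was 0.13 ± 0.34 (95% interval -0.59 to 0.85) with a limma adjusted p of 0.872, where 1.44% of the sites passed. The median difference over all 278 sites was 0.37 for PE3 and 0.04 for hA3A-BE3, so the NEIL1 value was below the median in PE3, with 191 sites at or above it. Cas9 against EGFP gave 0.38 ± 0.36 (95% interval -0.37 to 1.14) with a limma adjusted p of 0.850, where 0.36% of the sites passed. The upper bounds of these 3 intervals lie near or above the 0.87 seen between EGFP and non-transfected cells, so differences of that size could have been missed. Exact permutation tests of the percent gave p = 0.309 for hA3A-BE3, p = 0.945 for PE3 and p = 0.3 for Cas9 against EGFP.

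Intron 5 sites 355 and 361 lie 384 and 378 bases before exon 6 and were edited more heavily than site 280. Both were called in 11 libraries, and not in hA3A-BE3 replicate 2, PE3 replicate 2 or Cas9 replicate 2. At site 355 the hA3A-BE3 libraries held 36.8% (7 of 19 reads) and 65.4% (17 of 26), PE3 replicate 3 held 43.5% (10 of 23), and the Cas9 libraries held 54.2% (13 of 24) and 65.5% (19 of 29). EGFP libraries held 50% (17 of 34), 48.3% (14 of 29) and 66.7% (14 of 21), and non-transfected libraries 65.8% (25 of 38), 58.3% (21 of 36) and 55.9% (19 of 34). The groups overlapped, and non-transfected cells were not the low group here. At site 361 the values were 38.1% and 72% in hA3A-BE3, 43.5% in PE3, 50% (12 of 24 reads) and 69% (20 of 29) in Cas9, 50%, 51.9% and 66.7% in EGFP, and 50%, 50% and 57.6% in non-transfected cells. The 3 sites lie within 1 read length of each other, so they share reads.

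Sites 355 and 361 were tested in a wider limma fit of 669 sites called in at least 10 libraries and 1 of every group, chosen after seeing the data because these sites were called in only 1 PE3 library. That library is assumed to vary like the other groups. For EGFP against non-transfection, where 0.897% of the 669 sites passed, the differences were -0.29 at site 355 (limma adjusted p = 0.897) and 0.21 at site 361 (limma adjusted p = 0.921). For hA3A-BE3 against controls, where 0.0% passed and 35 sites (5.23%) had an unadjusted p under 0.05, they were -0.40 (limma adjusted p = 0.951) and -0.03 (limma adjusted p = 0.993). For PE3 they were -0.84 (95% interval -2.14 to 0.46, limma adjusted p = 0.629) and -0.71 (limma adjusted p = 0.714), where 0.747% passed. For Cas9 against EGFP they were 0.28 (limma adjusted p = 0.942) and 0.20 (limma adjusted p = 0.984), where 0.149% passed. Leaving out hA3A-BE3 replicate 1 turned the hA3A-BE3 direction at site 355 to 0.41.

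Within a library, site 355 was edited above site 280 by 21.3 ± 13.9 percentage points (SD, n = 11), higher in 10 of 11 libraries (two-sided exact sign-flip permutation p = 0.00195). The exception was hA3A-BE3 replicate 1, at -5.26 points. It was 31.2 points in hA3A-BE3 replicate 3, 7.48 in PE3 replicate 3, and 18.9 and 16.9 in the Cas9 libraries. In the EGFP libraries it was 15.9, 11.9 and 28.2 points, against 42.1, 33.9 and 33.7 in the non-transfected libraries. The gap contains the site 280 level, already lowest in non-transfected cells, so it is not a separate result. Group differences in this gap were not tested. Sites 355 and 361 differed less, by -15.8 to 6.62 points (361 minus 355).

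**Figure D4:**
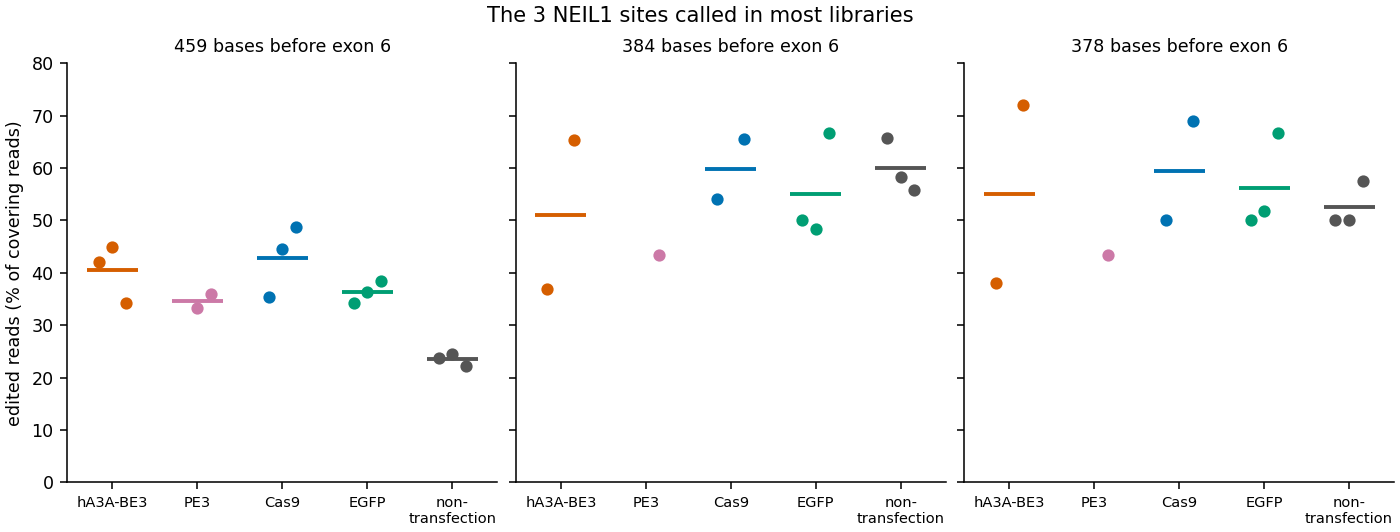
Percent of covering reads edited at the 3 NEIL1 sites called in the most libraries, 1 point per library and a bar at the mean of groups with at least 2 points, by group. Non-transfected cells are the lowest group at the site 459 bases before exon 6, and lie among the other groups at the sites 384 and 378 bases before it.

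The coding sites were called in few libraries. Exon 6 site 745, at codon position 2 of an AAA lysine codon, gives K242R, the known recoding of the lesion recognition loop. It was edited at 37.9% (11 of 29 reads) in PE3 replicate 3 and at 57.9% (11 of 19) and 52.6% (10 of 19) in non-transfected replicates 1 and 3. The next base, site 746 at codon position 3, keeps the lysine (K242K) and was edited at 20.7% (6 of 29) in PE3 replicate 3 and 25.0% (5 of 20) in non-transfected replicate 1. In both libraries with both calls, site 746 was lower than site 745. The depth at these calls was 3.34 to 5.26 reads per Gb of mapped bases, close to the lowest depth of any listed site in the series, 3.01. A library without a call is therefore not a library with no editing, and the groups could not be compared at K242R. The sites are bases 7 and 8 of the exon, counted from 1 at its start, and the placing of reads that cross the splice junction is not described in the sources used here.

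The other A-to-I sites were called in at most 4 libraries. In intron 5, site 884 was edited at 47.1% (8 of 17 reads) in PE3 replicate 3, 37.5% (6 of 16) in EGFP replicate 1, and 31.2% (5 of 16) and 35.3% (6 of 17) in non-transfected replicates 1 and 3. The 10 other intron 5 sites ranged from 5.88% to 17.6%. Low sites stood next to high ones: site 351, 4 bases before site 355, reached 8.70% in PE3 replicate 3 and 5.88% in Cas9 replicate 3. In intron 2 the most edited was site 324, at 54.5% in EGFP replicate 3 and 35% in non-transfected replicate 3, followed by site 340 at 21.7% and 43.3% in the same libraries. The 4 remaining intron 2 sites ranged from 10.5% to 25.0%.

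T-to-C changes made up more of the NEIL1 calls than of the series, 41 of 120 (34.2%) against 1251 of 46372 (2.70%). A-to-I calls were 64.2% against 61.5%, but the series total holds many other calls of the hA3A-BE3 libraries. Of all listed calls in those libraries, 1933 of 4689, 2013 of 7369 and 2504 of 9278 were A-to-I. In non-transfected libraries they were 2231 of 2501, 2024 of 2304 and 2038 of 2288. The 61.5% is therefore lower than the share in libraries without the base editor. The authors' strand assignment is unknown. T-to-C changes in NEIL1 RNA, A-to-I changes in RNA of the opposite strand and reads placed on an inverted copy cannot be told apart here. By T-to-C sites NEIL1 had 14, and 8 of the 410 genes with such a site had more, led by CRLF3 with 52. At least 10 sites of both changes were found in 3 genes, and 175 had both. Site 360, between the heavily edited sites 355 and 361, was called in 9 libraries at 5.71% to 23.8%. Site 425 was called in 5 libraries at 20% to 36.8%, site 499 in 6 at 8.70% to 22.7% and the adjoining site 498 in 5 at 8.70% to 22.7%. The NEIL1 T-to-C sites lay 1 to 50 bases (median 12) from the nearest A-to-I site. By library, T-to-C calls numbered 1, 0 and 9 in hA3A-BE3, 0 and 0 in PE3, 1, 0 and 3 in Cas9, 5, 4 and 3 in EGFP, and 7, 4 and 4 in non-transfected cells. PE3 replicate 3 thus had 11 calls, all A-to-I, the only library with more than 1 call and no T-to-C among them. The 2 G-to-A sites, 467 and 470 in intron 2, were each called once, at 10.5% (2 of 19 reads) in non-transfected replicate 2.

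The RNA around exon 6 was folded with RNAfold, from 75352602 to 75353866, giving a minimum free energy of -557.3 kcal/mol over 1265 bases. Of the called A-to-I sites 10 of 16 (62.5%) were paired, against 140 of 300 (46.7%) of the other adenosines. Of the T-to-C sites 8 of 9 (88.9%) were paired, against 179 of 269 (66.5%) of the other T bases. The paired T-to-C sites lay opposite an A in 6 cases and a G in 2, and 3 of these A were themselves called A-to-I sites. The heavily edited sites 280 and 355 were predicted unpaired and site 361 paired. At the border, 22 of the first 30 bases of exon 6 paired with the intron, where K242R site 745 was unpaired and site 746 paired with a base 25 positions upstream. The fold is a prediction, not a measurement.

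The bases beside the sites could be read for 18 A-to-I and 10 T-to-C sites in exons of transcripts. A G followed 10 of the 18 A-to-I sites (55.6%), against 44.5% of 6276 A-to-I sites of all genes, and a G came before 1 (5.56%), against 7.60%. A T, the U of RNA, came before 7 (38.9%), against 30.8% over all genes, and it is the base before each of sites 280, 355 and 361. An A followed 5 of the 10 T-to-C sites (50%), against 24.2% of 422 T-to-C sites of all genes.

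No difference between groups in the number of called NEIL1 sites, or in the depth behind them, passed a test after adjustment. The number of called NEIL1 sites was 4, 1 and 13 in hA3A-BE3, 1 and 11 in PE3, 4, 1 and 8 in Cas9, 15, 7 and 14 in EGFP, and 17, 10 and 14 in non-transfected cells. In each group except EGFP and non-transfected cells a library with 1 call stands beside one with at least 8. Means were 6 ± 6.24 in hA3A-BE3 (SD, n = 3) and 6 ± 7.07 in PE3 (SD, n = 2), against 10 ± 5.43 in controls (SD, n = 9), with two-sided exact permutation p = 0.318 and p = 0.4. Cas9 averaged 4.33 ± 3.51 sites against 12 ± 4.36 in EGFP (exact permutation p = 0.2), and EGFP against 13.7 ± 3.51 in non-transfected cells gave exact permutation p = 0.7; adjusted over the 4 contrasts these were 0.533 to 0.7. As a share of all A-to-I calls, NEIL1 took 0.122% in hA3A-BE3 against 0.284% in controls (exact permutation p = 0.0818, adjusted p = 0.327 over the 4 contrasts) and 0.315% in PE3 (exact permutation p = 0.727). The shares were 0.153% ± 0.0669 in Cas9, 0.322% ± 0.144 in EGFP and 0.379% ± 0.158 in non-transfected cells (SD, n = 3 each). Exact permutation p was 0.3 for Cas9 against EGFP (adjusted 0.6) and 0.5 for EGFP against non-transfection (adjusted 0.667), where 3 libraries against 3 cannot give less than 0.1. Reads covering site 280 per Gb had a geometric mean of 3.37 in hA3A-BE3, 2.46 in PE3, 2.98 in Cas9, 5.04 in EGFP and 5.75 in non-transfected cells, with 4.42 over all controls. The log2 difference from controls was -0.39 for hA3A-BE3 (exact permutation p = 0.341) and -0.85 for PE3 (exact permutation p = 0.109), and that of Cas9 from EGFP was -0.76 (exact permutation p = 0.3). EGFP from non-transfected cells was -0.19 (exact permutation p = 0.8). Without Cas9 replicate 2, the shallowest control, the difference from controls was -0.57 for hA3A-BE3 (exact permutation p = 0.0485, adjusted p = 0.0970) and -1.02 for PE3 (exact permutation p = 0.0222, adjusted p = 0.0889), and that of Cas9 from EGFP was -0.33 (exact permutation p = 0.5). Other libraries moved these values the other way: hA3A-BE3 was at -0.21 without its replicate 1 (exact permutation p = 0.582), and PE3 was at -0.43 without its replicate 2 (exact permutation p = 0.5). Site 280 lies in an intron, so these reads count RNA that keeps the intron and not all NEIL1 transcript. Fewer cells with the transcript, less transcript per cell and less keeping of the intron cannot be told apart in these libraries.

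**Figure D5:**
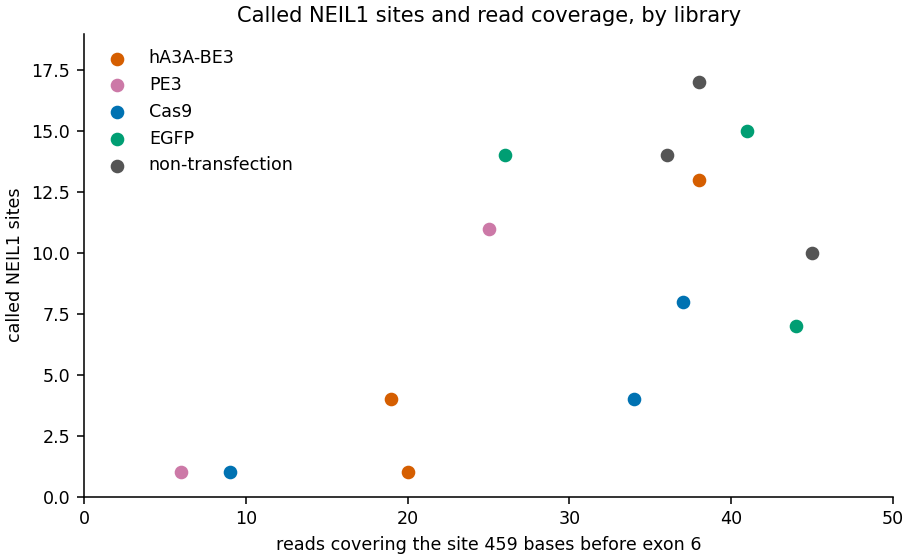
Number of called NEIL1 sites against the reads covering intron 5 site 280, 1 point per library, coloured by group. The libraries with 1 called site had 6, 9 and 20 reads there, and those with at least 10 sites had 25 to 45. The rest did not follow the reads closely. There were 4 sites with 19 reads (hA3A-BE3 replicate 1) and 4 with 34 (Cas9 replicate 1). Cas9 replicate 3 had 8 with 37 reads and EGFP replicate 2 had 7 with 44.

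Mapped bases behind a library, inferred from the scaling of its depth signal, ran from 3.26 Gb (PE3 replicate 2) to 10.6 Gb (Cas9 replicate 3). In the whole series the lowest listed level was 5.02% and the fewest edited reads 2.

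Among the other genes of base excision repair, 3 of 26 had any A-to-I site, 7 sites in all, of which none was called in enough libraries to be tested. In the whole series 1581 genes had such a site. The share over all genes was not taken, so the gene counts of this and the next 2 lists show no excess or lack. POLE, a replicative DNA polymerase, had a site in 2 libraries at 16.5% ± 1.60 (SD, n = 2). TDG, a thymine DNA glycosylase, had one in 1 library at 25.0%, and PCNA, the sliding clamp, in 1 at 14.3%. Of 29 transcripts known to be recoded by ADAR enzymes, listed without NEIL1, 7 had A-to-I sites, 85 in all with 11 in coding sequence. The limma test covered 12 of these sites, in 2 genes. No site passed in any of the 4 contrasts, and edgeR passed 0 of the 3 it covered. An unadjusted limma p under 0.05 was found at 3 of the 12 for hA3A-BE3 (6.12% of all 278 sites), and at 2 each for PE3 (13.7%), Cas9 against EGFP (9.71%) and EGFP against non-transfection (12.2%). Their median difference in log2 odds was 0.01 for hA3A-BE3, beside 0.04 over all 278 sites, and 0.23 for PE3, beside 0.37. It was -0.54 for Cas9 against EGFP, beside -0.02 over all sites, and 0.44 for EGFP against non-transfection, beside 0.25. SRP9, a subunit of the signal recognition particle, had a coding site in all 14 libraries at 29.7% ± 6.5 (SD, n = 14), and BLCAP had one in 3 libraries at 20.4% ± 7.63 (SD, n = 3). COG3, a Golgi tethering subunit, and SON, a splicing cofactor, had coding sites in 1 library each. Of 10 ADAR enzymes and reported regulators, AIMP2 and ADARB2 had 1 site each, in 1 library.

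Coding A-to-I sites called in all 14 libraries numbered 5 in the series: NUP153 at 31.4% ± 7.45, TDP2 at 36% ± 4.45, TAF2 at 31.0% ± 7.55, and 2 in SRP9 at 29.7% and 17% ± 6.62 (SD, n = 14 each). The A-to-I sites with levels most like NEIL1 site 280, by mean absolute difference in percent over shared libraries among 649 candidates, were in DCAF16 (4.91 points, 11 libraries), UCHL1 (5.52, 13 libraries), TDP2 (6.70, 14 libraries), HELLS (6.85, 13 libraries) and ZYG11B (7.07, 10 libraries). Mean levels in EGFP and non-transfected cells were 35.7% and 28.6% at the DCAF16 site, 33.3% and 25.9% at UCHL1, 31.6% and 35.9% at TDP2, 43.2% and 21.5% at HELLS, and 30.6% and 20.3% at ZYG11B. These sites were chosen for levels close to site 280, library by library, which includes its lower level in non-transfected cells, so these means are a description and show nothing further. Of the genes within 5 kb of NEIL1, COMMD4 had an A-to-I site at 33.3% (3 of 9 reads) in PE3 replicate 2, and MAN2C1 had a T-to-G call at 8.57% in hA3A-BE3 replicate 3 and a C-to-A call at 11.1% in non-transfected replicate 2.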

How the data were processed

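Total RNA of 293FT cells was sequenced as stranded libraries after ribosomal and globin RNA depletion, in pairs of 150 bases, per the labels' protocols. The submitters' processing notes name the aligner BWA 0.7.17 and the build GRCh38 (hg38). The site caller, its filters and how the authors assigned strands were not given in the sources used here. Treatment labels gave the groups, and titles the replicate numbers. PE3 replicate 1 was not analysed here.

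For each library the authors deposited a headerless list of called sites: counts of reads covering the site and with each base, the edited fraction, a larger read depth, and a signal equal to that depth divided by a constant per library. That constant was read here as Gb of mapped bases, an inference from the values. Edited reads were taken as covering reads times the deposited fraction. The strand of a call was inferred here as plus where the count of the changed base gave the deposited fraction. It was taken as minus where the count of the complement of that base did. A site absent from a list is missing, not 0. Bases were checked against GENCODE 29 transcripts.

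Levels were tested as log2((edited + 0.5)/(unedited + 0.5)) with limma 3.58.1 in R 4.3.3 over all sites called in at least 2 libraries of every group, all 14 libraries in 1 fit, adjusted by Benjamini-Hochberg over sites at 0.05. The fit was tested on simulated data. Values per library were compared by two-sided exact permutation tests (SciPy 1.17.1), adjusted over the 4 contrasts. Alternatives were edgeR 4.0.16 on read counts, other priors and filters, a block for the replicate number, and each library left out in turn. Folding used RNAfold 2.7.2. Named genes are NEIL1, up to 5 genes per list by libraries called, up to 5 sites most like site 280, genes within 5 kb, and up to 5 coding sites called in all 14 libraries. One gene that this rule names is not reported here. The members, lists and rules were chosen with earlier results of these data known.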

Additional observations from a re-analysis of the deposited data

Results flagged for a closer look

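Cas9 replicate 2 had the lowest read depth at NEIL1 site 280 among the 9 control libraries, a log2 value of 0.73 reads per Gb of mapped bases, and its gap to the next control was 0.524 of the range of the controls. It also had 1 called NEIL1 site. It was the only one past the limit of 8 gaps examined, at both ends of 4 quantities. Chance gives such a gap in about 1 in 20 groups for 1 quantity, and more often when 4 are examined. The 9 controls pool 3 groups whose geometric mean depths were 2.98 (Cas9), 5.04 (EGFP) and 5.75 (non-transfection) reads per Gb.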

How the results depend on the processing

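Of 206 values under alternatives other than leaving out a library, 179 were unchanged. For tests this means the same direction and side of the threshold, and for counts of passing sites a count near the main one. No NEIL1 comparison between groups passed an adjusted p of 0.05 under any. Exact tests of 3 libraries against 3 cannot give less than 0.1, so those comparisons could not change side and are no sign of stability. The NEIL1 share of A-to-I calls in PE3 minus controls was -0.0973 points with at least 5 mutated reads and -0.0863 with an edited fraction of at least 10%. The pooled percent rests on site 280 in the main setting. Over all called A-to-I sites of a library it was -8.94 points for PE3 and -2.17 for EGFP against non-transfection. That pool holds different sites in each library, such as 11 in PE3 replicate 3 (25.6%) and 1 in Cas9 replicate 2 (44.4%). These 2 differences therefore do not compare the same sites and are no check of the level at site 280. Site 355 for hA3A-BE3 was 0.41 (log2 odds) with at least 20 reads, and site 361 was 0.061 when weighted by covering reads. The number of sites passing over all genes changed most. For PE3 it was 4, and 0 with at least 20 reads, 2 with at least 5 mutated reads, 0 on the linear scale, 2 among sites called in all 14 libraries, 1 with edgeR and 0 with the exact test. For Cas9 against EGFP it was 1, and 0 with at least 20 reads, a prior of 2 reads, the linear scale, edgeR or the exact test, and 4 when weighted. For EGFP against non-transfection it was 1, and 0 with at least 20 reads, a prior of 2 reads, the linear scale or the exact test, 10 when weighted, 7 with edgeR and 6 among 669 sites in at least 10 libraries. The edgeR counts are over the 152 sites called in all 14 libraries. The causes were not tested, apart from the fewer sites some settings test.

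Samples of 1 replicate number were checked for shared deviations: over 152 sites their correlations ran from -0.227 to 0.128. The median was 0.040 for these pairs and -0.011 for pairs of different numbers. Counting error lowers such correlations, so this check cannot decide whether the numbers pair them. With a replicate block the pooled percent for PE3 was -1.10 points, the EGFP against non-transfection count was 3, and site 280 in that contrast was 0.87.

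Leaving out 1 library at a time, the number of NEIL1 sites in hA3A-BE3 minus controls ran from -7.50 (without its replicate 3) to -1.50 (without its replicate 2), in PE3 minus controls from -9.00 to 1.00 (the highest without PE3 replicate 2) and in EGFP minus non-transfection from -3.50 to 0.833 (the highest without EGFP replicate 2). The share of A-to-I calls ran from -0.169 to 0.231 for PE3 and from -0.148 to 0.0251 for EGFP, the highest for EGFP again without its replicate 2 and the lowest for PE3 without its replicate 3. Reads per Gb (log2) ran from -0.57 to -0.21 for hA3A-BE3, from -1.26 to -0.43 for PE3, from -1.07 to -0.33 for Cas9 and from -0.35 to 0.089 for EGFP, and the pooled percent for PE3 from -1.02 to 2.28. Site 355 ran from -1.21 to 0.41 for hA3A-BE3 and from -0.054 to 0.61 for Cas9 against EGFP. Site 361 ran from -1.02 to 0.95 for hA3A-BE3, from -0.35 to 0.76 for Cas9 and from -0.091 to 0.38 for EGFP. Counts of sites passing ran from 0 to 1 for hA3A-BE3, from 0 to 30 for PE3 (30 without PE3 replicate 3, which leaves 1 PE3 library assumed to vary like the other groups), from 0 to 1 for Cas9 and from 0 to 6 for EGFP (6 without PE3 replicate 2). The excess of site 355 over site 280 stayed between 19.3 and 24.0 points. NEIL1 calls rest on at most 45 reads, which limits all levels.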
